A study of Drosophila melanogaster with 6 samples.

Results

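The innate immune genes of Drosophila that encode peptidoglycan recognition proteins (PGRPs), antimicrobial peptides, Turandot and thioester proteins, lysozymes and the core signalling proteins of the Imd and Toll pathways were followed in escargot-positive cells of the adult midgut, that is, in intestinal stem cells (ISCs) and enteroblasts (EBs). The members were all rows of the expression table whose symbol begins with PGRP-, Att, Cec, Dpt, Drs, Tep, dro and a digit, Tot and a capital or Lys and a capital, together with Mtk, Dro, Def, pirk, Rel, imd, Tl, cact, dl and Dif. Of the 15603 genes listed, 60 were members. Of these, 41 stood above 1 FPKM in at least 1 library, 4 stood above 0 but never above 1, and 15 were listed at 0 in every library. FPKM is the number of sequenced fragments per kilobase of transcript and per unit of mapped fragments, so that levels can be set side by side between genes. Just inside the limit of 1 FPKM were LysS at 1.04, Tl at 1.11 and AttA at 1.17, and just outside it were TotC at 0.749, AttB at 0.561 and TepIII at 0.529. The choice of members used names, but it was made with earlier results of these data known.

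GFP-positive cells had been sorted from about 100 guts of 7-day-old mated females per library, and each of 6 conditions had 1 library. All 6 genotypes carried esg::Gal4, UAS::GFP and tub::Gal80ts, so that UAS transgenes were driven in escargot-positive cells only after the shift to 29 °C. The library w1118 carried no further UAS transgene, HttQ138 carried an mRFP-tagged, aggregation-prone form of human huntingtin, CncCRNAi an RNAi construct against the Nrf2 homologue CncC, and CncCRNAi+HttQ138 both, all after 2 days at 29 °C. The library attP2 came from the empty attP2 landing site and Rpn3RNAi from an RNAi construct against a subunit of the proteasome lid inserted there, both after 4 days at 29 °C. Each line stands for 1 transgene insertion, and the CncCRNAi and attP2 controls differ from w1118 in genetic background as well.

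With 1 library per condition, no difference had a replicate check and no p-value was computed. Depth was estimated from the spacing of low FPKM values at 2790000 to 3650000 fragments per library. The 95% intervals on ratios are exact Clopper-Pearson intervals on estimated fragments that cover counting error only. For sums over genes the ratio is of summed FPKM, but the interval is on summed fragments, in which longer transcripts weigh more. Such an interval need not centre on the ratio beside it. esg, the gene whose promoter drives the GFP, stood between 287 and 346 FPKM in all libraries, whereas cnc was not lower in the libraries labelled CncCRNAi (64.4 and 75.6 FPKM) than in w1118 (63.8), and Rpn3 was at 63.2 FPKM in Rpn3RNAi against 77.1 in attP2, 71.0 in HttQ138 and 33.1 to 45.5 in the other 3. Summed levels of 27 enterocyte markers ranged from 940 to 1397 FPKM in the 4 libraries w1118, CncCRNAi, CncCRNAi+HttQ138 and attP2, and reached 3540 in HttQ138 and 15353 in Rpn3RNAi. None of these 27 was listed at 0 in all libraries. Against w1118, 5 were called higher and 1 lower in CncCRNAi, and 5 higher and 2 lower in attP2. A call needs a 3-fold difference and 10 FPKM in the higher library. Sums of 11 progenitor markers ranged from 1018 to 1945 FPKM, of 12 enteroendocrine markers from 80.9 to 453, of 10 visceral muscle markers from 69.4 to 146 and of 8 Malpighian tubule markers from 57.9 to 94.1.

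In flies, DAP-type peptidoglycan from Gram-negative bacteria is sensed by PGRP-LC at the cell surface and by PGRP-LE inside the cell, and the adaptor Imd passes the signal to the NF-κB factor Relish. Relish targets include antimicrobial peptides and also brakes on the pathway, among them pirk and the amidases that cut peptidoglycan. The Toll pathway acts through the NF-κB factors Dorsal and Dif, which the inhibitor Cactus holds in the cytoplasm. In the gut, the Imd pathway is the main inducer of antimicrobial peptides, and amidases and lysozymes are made in part by enterocytes, the absorptive cells that EBs become.

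Recognition and signalling genes of the Imd pathway were abundant in every library, while most of their effector genes were at or near 0. pirk (FBgn0034647), whose product removes PGRP-LC from the cell surface, stood at 919 FPKM in w1118 against 743 in HttQ138, 685 in CncCRNAi against 643 in CncCRNAi+HttQ138, and 906 in attP2 against 581 in Rpn3RNAi. Among all genes listed it ranked between 120 and 151 in these libraries. Rel (FBgn0014018), which encodes Relish, read 718, 615, 733, 788, 784 and 1076 FPKM in that order, and ranked between 108 and 146. Both genes were thus among the 151 most abundant in each library. imd (FBgn0013983) itself lay lower, between 5.76 and 9.48 FPKM, and overlaps Dp1 and GstE9 on the other strand, whose reads cannot be told from its own without strand.

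The receptors differed little between libraries. PGRP-LC (FBgn0035976) stood at 88.7 FPKM in w1118 against 102 in HttQ138, 79.8 in CncCRNAi against 95.03 in CncCRNAi+HttQ138, and 74.0 in attP2 against 58.6 in Rpn3RNAi. Its neighbours on chromosome arm 3L ran at like levels. PGRP-LA (FBgn0035975), which is known in flies as a regulator of the Imd pathway in barrier tissues, ranged from 129 to 164 FPKM, and PGRP-LF (FBgn0035977), a membrane protein that holds PGRP-LC signalling down, from 62.4 to 98.8. In release 6 of the reference these 3 genes follow one another on the same strand. PGRP-LE (FBgn0030695), the intracellular sensor, lay between 26.5 and 36.8 FPKM. Among these 4 genes the spread between the highest and the lowest library was widest for PGRP-LC, at 1.74-fold.

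PGRP-SD (FBgn0035806), a secreted protein that promotes recognition at the cell surface, was the most abundant PGRP in w1118 and varied more. It stood at 278 FPKM in w1118 against 206 in HttQ138, 190 in CncCRNAi against 150 in CncCRNAi+HttQ138, and 379 in attP2 against 434 in Rpn3RNAi. Both libraries of the attP2 background lay above all 4 others. PGRP-SA (FBgn0030310), the circulating sensor of the Toll pathway, reached at most 3.29 FPKM, and PGRP-LD (FBgn0260458) at most 3.21.

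**Figure D1:**
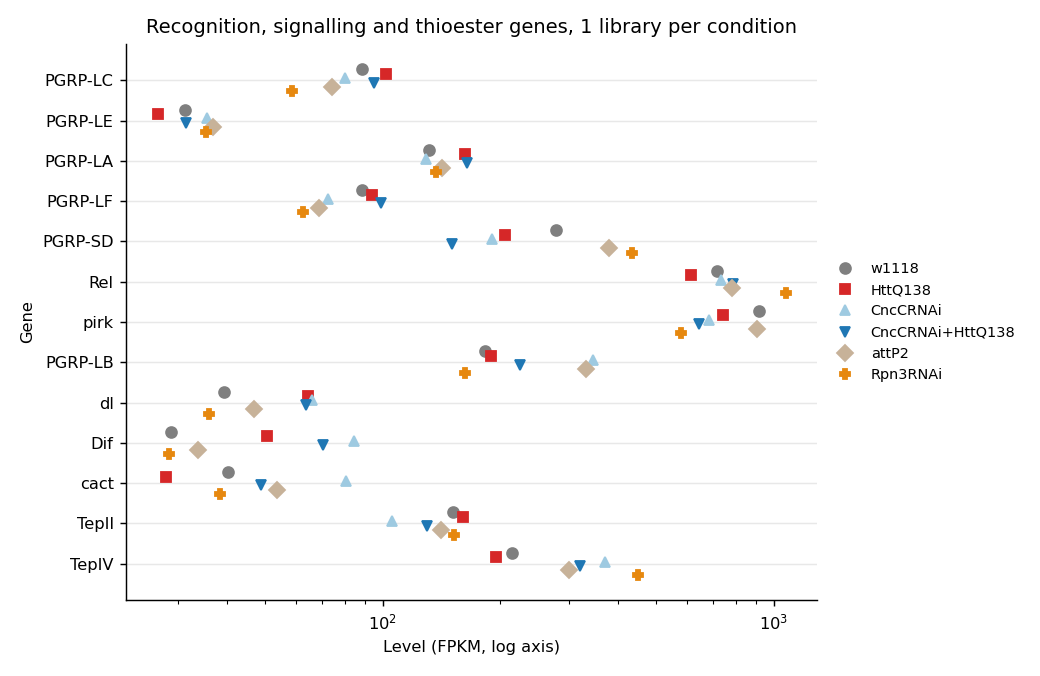
FPKM of 13 recognition, signalling and thioester genes (vertical axis) on a log axis, with 1 symbol per library. PGRP-LC, PGRP-LE, PGRP-LA and PGRP-LF form tight clusters, while PGRP-LB, Dif, cact and TepIV spread further, with Dif highest in CncCRNAi (84.3 FPKM) and TepIV highest in Rpn3RNAi (450).

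Of the Toll pathway members, the receptor Tl (FBgn0262473) was nearly silent, at 0.503 to 1.11 FPKM, whereas Dif, dl and cact were expressed. Outside the members, spz, which encodes a ligand of Toll, ranged from 9.31 to 42.3 FPKM, and the kinase gene pll from 5.31 to 14.8. Dif (FBgn0011274) stood at 28.7 FPKM in w1118 against 50.7 in HttQ138, 84.3 in CncCRNAi against 70.4 in CncCRNAi+HttQ138, and 33.7 in attP2 against 28.3 in Rpn3RNAi. dl (FBgn0260632), which encodes Dorsal and lies close to Dif on 2L, stood at 39.1, 64.3, 66.0, 63.6, 46.8 and 35.9 FPKM in that order. For both genes the 3 libraries that carry HttQ138 or CncCRNAi lay above the other 3. cact (FBgn0000250) did not share this order, at 40.1, 27.9, 80.4, 48.7, 53.5 and 38.4 FPKM, with its highest value in CncCRNAi and its lowest in HttQ138.

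Of the thioester proteins, which resemble complement factors and coat microbes, TepII and TepIV were expressed and TepI and TepIII stayed at or below 0.529 FPKM. TepII (FBgn0041182) ranged from 105 FPKM in CncCRNAi to 161 in HttQ138. TepIV (FBgn0041180) stood at 214 FPKM in w1118 against 195 in HttQ138, 369 in CncCRNAi against 320 in CncCRNAi+HttQ138, and 300 in attP2 against 450 in Rpn3RNAi. w1118 and HttQ138 were its lowest libraries.

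Among 22 antimicrobial peptide genes and pseudogenes, 9 were listed at 0 in every library, among them Dpt and DptB, the diptericins widely used as readouts of the Imd pathway, and dro3 to dro6. Only AttD and CecC reached 10 FPKM in any library. AttD (FBgn0038530), an attacin gene on 3R, stood at 21.4 FPKM in w1118 against 8.82 in HttQ138, 13.3 in CncCRNAi against 22.4 in CncCRNAi+HttQ138, and 25.6 in attP2 against 86.5 in Rpn3RNAi. It was thus detected in all libraries and highest in Rpn3RNAi. The other 21 genes together gave an estimated 1.98 fragments in w1118 against 2.98 in HttQ138, 6.88 in CncCRNAi against 6.12 in CncCRNAi+HttQ138, and 21.8 in attP2 against 19.7 in Rpn3RNAi.

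Such low fragment numbers were spread over several peptide genes in attP2 and Rpn3RNAi, which share both the attP2 landing site and 4 days at 29 °C. Of the 21 genes, 9 stood above 0 in attP2 and 8 in Rpn3RNAi, against 1 to 4 in the other libraries. CecA1 (FBgn0000276), a cecropin, was listed at 9.77 FPKM in attP2, from about 6.43 fragments, and at 0 elsewhere. Drs, which encodes the antifungal peptide Drosomycin, reached at most 3.92 FPKM, in HttQ138, and Mtk, which encodes Metchnikowin, 5.82, in Rpn3RNAi. Of 10 markers of the fat body, the main site of systemic peptide production, 5 had attP2 and Rpn3RNAi as their highest libraries. They were Lsp2, apoLTP and the yolk protein genes. Fbp1 was highest in w1118, at 3.01 FPKM against 0.941 in attP2 and 0.444 in Rpn3RNAi. The sum of all 10 was 35.9 FPKM in w1118 against 27.0 in HttQ138, 84.9 in CncCRNAi against 67.7 in CncCRNAi+HttQ138, and 193 in attP2 against 536 in Rpn3RNAi. In attP2 and Rpn3RNAi most of it came from the yolk protein genes Yp1, Yp2 and Yp3, with Yp1 at 10.3 FPKM in w1118 and 75.9 in attP2, while the defining larval serum protein gene Lsp2 reached at most 1.17. None of the 10 was listed at 0 in all libraries. Their part in the result was not tested. Of 14 hemocyte markers, 5 also had attP2 and Rpn3RNAi as their highest libraries. NimB2 reached 4.58 FPKM in the attP2 library and 9.496 in Rpn3RNAi against at most 1.35 elsewhere, and Hml, a defining marker, at 0.406 and 0.530 against at most 0.169. The others were Pxn, eater and NimB4, all under 1 FPKM. The sum of the 14, from 120 to 180 FPKM, came mostly from crq and did not show this order. The part of these markers was not tested either.

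Turandot genes, which encode humoral stress proteins, were silent but for TotM (FBgn0031701) at up to 3.22 FPKM, in CncCRNAi. Of the 7, 5 were listed at 0 in every library. The 3 fragments that a count of 0 still allows equalled 1.83 to 3.05 FPKM for these 5 short transcripts, and 2.40 to 82.7 FPKM for the 9 peptide genes at 0, the upper end for the shortest of them.

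A group of 8 members stood at least 3-fold higher in Rpn3RNAi than in attP2 and reached 10 FPKM, and they were amidases, lysozymes and 2 antimicrobial peptides. PGRP-SC1a (FBgn0043576), PGRP-SC1b (FBgn0033327) and PGRP-SC2 (FBgn0043575) encode secreted amidases that cut peptidoglycan into fragments that no longer signal. PGRP-SC2 stood at 5.61 FPKM in w1118 against 16.7 in HttQ138, 2.15 in CncCRNAi against 6.19 in CncCRNAi+HttQ138, and 2.87 in attP2 against 100.3 in Rpn3RNAi. PGRP-SC1a read 0.398, 2.64, 1.07, 0.682, 0.712 and 39.8 FPKM in that order, and PGRP-SC1b 0.332, 4.71, 1.49, 1.13, 1.18 and 43.5. All 3 had their highest value in Rpn3RNAi and the next in HttQ138. Against attP2, the ratio in Rpn3RNAi was 35.0 for PGRP-SC2, with a counting interval of 15.8 to 97.0.

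The coding parts of PGRP-SC1a and PGRP-SC1b are nearly identical, so that reads may have been split between them. Summed over the 3 genes, the level rose from 4.76 FPKM in attP2 to 184 in Rpn3RNAi, a ratio of 38.6 (21.3 to 77.9). The genes lie side by side on 2R in release 6, and the gene between the first pair, CG14743, reached at most 0.363 FPKM. CG14767, the next gene beyond PGRP-SC2, did not follow them, at 127 FPKM in attP2 and 101 in Rpn3RNAi.

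LysB (FBgn0004425), LysD (FBgn0004427) and LysE (FBgn0004428) encode digestive lysozymes of the midgut, enzymes that break down bacterial walls. LysD stood at 7.36 FPKM in w1118 against 1.87 in HttQ138, 4.85 in CncCRNAi against 2.12 in CncCRNAi+HttQ138, and 0.445 in attP2 against 73.8 in Rpn3RNAi. LysB stood at 1.45, 0.918, 0.865, 0.416, 0.437 and 32.8 FPKM in that order, and LysE at 2.26, 2.86, 3.04, 0, 0 and 19.1. Each of the 3 was highest in Rpn3RNAi by a wide margin, whereas their other 5 libraries did not exceed 7.36 FPKM. LysC (FBgn0004426), annotated as a pseudogene in release 6, stood at 7.91 FPKM in Rpn3RNAi and at up to 0.915 elsewhere. These copies are nearly identical and LysC and LysD overlap on opposite strands, so their sum was also taken. It was 11.1 FPKM in w1118 against 6.56 in HttQ138, 8.75 in CncCRNAi against 2.53 in CncCRNAi+HttQ138, and 1.75 in attP2 against 134 in Rpn3RNAi. The ratio of summed FPKM of Rpn3RNAi to attP2 was 76.2. The interval on summed fragments was wide, 28.6 to 6464, since attP2 held about 1.40 fragments. attP2 was also the lowest library, and against w1118 the same rule called the same 8 members.

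The remaining calls were AttD, at 86.5 against 25.6 FPKM (3.38-fold, interval 2.46 to 4.75), and CecC (FBgn0000279), at 13.5 against 3.84 FPKM. The CecC values rest on about 8.78 and 3.17 fragments, and the interval of its ratio, 0.950 to 21.9, spans 1. None of the 41 members was lower by the rule. The 8 calls made up 19.5% of the 41 members, where 4.27% of all 9530 genes above 1 FPKM were called higher and 1.14% lower. That 19.5% counts near-identical copies as separate members. With LysB to LysE summed, and PGRP-SC1a with PGRP-SC1b, the count was 5. Without the near-identical copies it was 3, namely PGRP-SC2, AttD and CecC. The median log2 ratio of FPKM + 1 was 0.14 over the 41 members and 0.00 over all genes.

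Many enterocyte markers moved in the same comparison: 18 of 27 were called higher in Rpn3RNAi, and the sum of all 27 rose 13.7-fold. alphaTry, a trypsin, went from 135 FPKM in attP2 to 3867 in Rpn3RNAi, while Myo31DF, whose promoter is a common enterocyte driver, stood at 182 and 135. Also not called were mex1 (109 and 111 FPKM), Ssk (108 and 83.2), Tsp2A (77.7 and 56.9) and mesh (57.5 and 108). Npc2e and Mdr50 rose but stayed under 10 FPKM. In this bulk measure, more enterocytes among the sorted cells and more RNA of the called genes per cell cannot be told apart. The part of these markers in the result was not tested. The progenitor sum was 1618 FPKM in attP2 and 1640 in Rpn3RNAi.

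**Figure D2:**
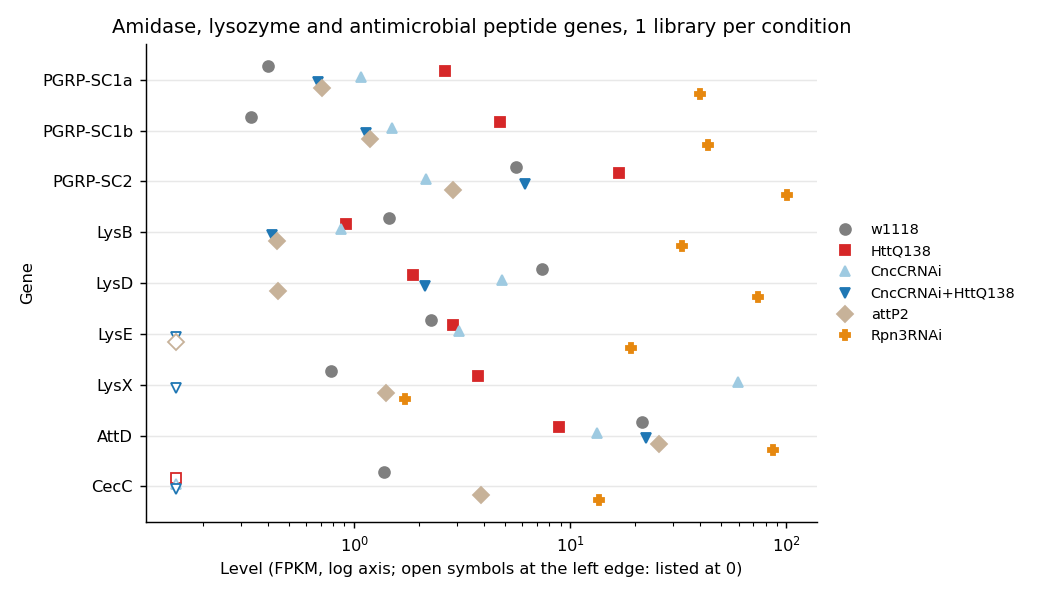
FPKM of 9 amidase, lysozyme and antimicrobial peptide genes (vertical axis) on a log axis, with 1 symbol per library and open symbols at the left edge for genes listed at 0. Rpn3RNAi is the highest library for every gene shown except LysX, which stands at 59.7 FPKM in CncCRNAi and at most 3.72 elsewhere.

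The abundant regulators moved by less than 3-fold in Rpn3RNAi. Rel stood at 1076 FPKM against 784, a ratio of 1.37 (1.33 to 1.41), where the 3 libraries without HttQ138 or Rpn3RNAi (w1118, CncCRNAi and attP2) differed by at most 1.09-fold. pirk stood 1.56-fold lower (interval 1.48 to 1.64), beside a spread of 1.34-fold among those 3 libraries. PGRP-LB (FBgn0037906), the amidase that limits Imd signalling in the gut, was 2.04-fold lower in Rpn3RNAi at 162 FPKM than in attP2 at 331 (1.82 to 2.28). Its control libraries differed by 1.89-fold, and w1118 and HttQ138 lay near the Rpn3RNAi value, at 183 and 189 FPKM. TepIV stood 1.5-fold higher than in attP2 (1.44 to 1.56), within its 1.72-fold spread among control libraries, of which CncCRNAi was the highest. Of a list of 28 Imd pathway genes, 11 of them members, 3 were called higher in Rpn3RNAi, and these were the PGRP-SC genes. Of 18 Toll pathway genes above 1 FPKM, 0 were called in either direction. With HttQ138 against w1118, 0 genes of either list were called.

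HttQ138 gave no member call in either direction. Of 41 members 0 were called higher, against 2.09% of all genes, and 0 lower, against 1.01%. PGRP-SC2 came closest, at 16.7 FPKM against 5.61, a ratio of 2.98 (1.45 to 6.89). It passed the rule against attP2, or once the libraries were rescaled to a median ratio of 1 (the median gene stood at 0.949 times w1118). PGRP-SC1b, at 4.71 against 0.332 FPKM, had a ratio of 14.2 (2.18 to 596) but stayed under 10 FPKM. The summed level of the 3 PGRP-SC genes was 24.1 FPKM in HttQ138 and 6.34 in w1118, a ratio of 3.80 (2.11 to 8.27). The enterocyte marker sum stood 3.77-fold above w1118, with 10 of 27 called higher. Markers of other cells also stood above w1118 in this library: 6 of 8 Malpighian tubule markers, with salt called at 10.2 against 0.502 FPKM, 8 of 12 enteroendocrine markers, with 2 called, and 7 of 10 visceral muscle markers, with Act57B at 5.82 against 0.620 FPKM. Their sums were not higher, being carried by Ugt35a, NPF and Msp-300 in these lists in turn. The progenitor sum was 1284 FPKM in HttQ138 and 1945 in w1118, with 2 of 11 markers above w1118 and 0 called. The part of these markers in the result was not tested. LysB to LysE summed to 6.56 FPKM in HttQ138 and 11.1 in w1118. The interval on about 7.40 and 12.1 summed fragments, 0.184 to 1.52, spans 1, so a difference was not detectable at this depth. LysX stood at 3.72 FPKM in HttQ138 and 0.784 in w1118, also with an interval that spans 1.

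Smaller differences in HttQ138 ran both ways. Dif was 1.76-fold (1.5 to 2.08) and dl 1.64-fold (1.43 to 1.90) above w1118. The spread among control libraries was 2.93-fold for Dif and 1.69-fold for dl, with CncCRNAi the highest of them for both. attP2 stood 1.17-fold above w1118 for Dif and 1.20-fold for dl. AttD stood 2.43-fold lower (1.34 to 4.58), outside its 1.93-fold spread among control libraries. pirk was 1.24-fold lower (1.18 to 1.29) and PGRP-SD 1.35-fold lower (1.18 to 1.55). Both lay within their spreads among control libraries, 1.34-fold and 2.00-fold in turn, with CncCRNAi the lowest of them for both. PGRP-LA was 1.23-fold higher (1.10 to 1.38), outside its 1.10-fold spread among control libraries.

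In the CncCRNAi background, HttQ138 gave 0 members called higher, against 0.714% of all genes, and 1 called lower, against 0.808%. The 1 was LysX (FBgn0004431), listed at 0 in CncCRNAi+HttQ138. The PGRP-SC genes summed to 8.005 FPKM in CncCRNAi+HttQ138 and 4.71 in CncCRNAi, a ratio of 1.70 (0.732 to 3.76), so a difference was not detectable at this depth. For PGRP-SC2 alone, at 6.19 against 2.15 FPKM, the ratio was 2.87 with an interval of 0.941 to 12.8. The enterocyte marker sums were 1374 and 1397 FPKM, with 2 of 27 called lower, Mal-A1 and Mal-A8. PGRP-LA again stood higher, by 1.27-fold (1.14 to 1.41), as did PGRP-LC by 1.19-fold (1.06 to 1.35) and PGRP-LF by 1.36-fold (1.17 to 1.58). cact stood 1.65-fold lower (1.43 to 1.90) and PGRP-LB 1.54-fold lower (1.40 to 1.69). The difference of PGRP-LC lay within its 1.20-fold spread among control libraries, and that of PGRP-LF outside its 1.29-fold spread. The spreads of cact and PGRP-LB, 2.00-fold and 1.89-fold, were those of CncCRNAi over w1118. As CncCRNAi is also the denominator here, they give no separate yardstick for these genes. The difference between the HttQ138 ratios with and without CncCRNAi was not tested, since each rests on 1 library per condition.

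**Figure D3:**
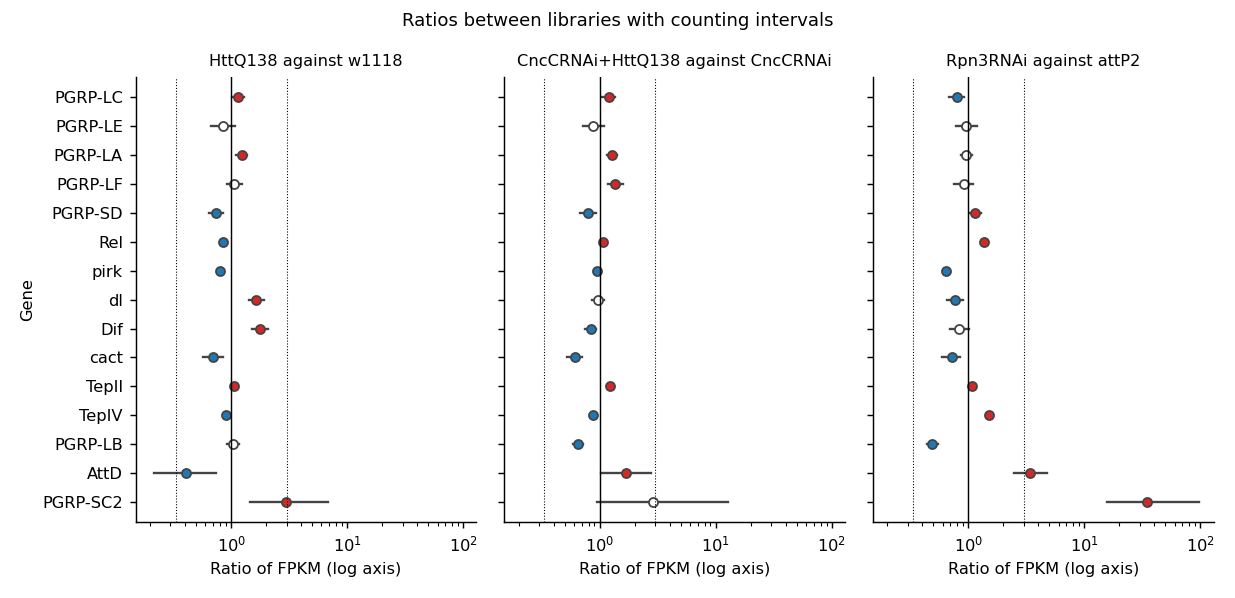
Ratios of FPKM on a log axis for 15 members in the 3 comparisons of a stressed library with its control. Lines are 95% counting intervals, filled points have an interval on 1 side of 1, the solid line marks a ratio of 1 and dotted lines mark 3-fold. PGRP-SC2 and AttD pass 3-fold in Rpn3RNAi only, at 35.0 and 3.38.

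The lysozyme genes LysX and LysP stood out in a single library each. LysX stood at 0.784 FPKM in w1118 against 3.72 in HttQ138, 59.7 in CncCRNAi against 0 in CncCRNAi+HttQ138, and 1.40 in attP2 against 1.72 in Rpn3RNAi. The CncCRNAi value rests on an estimated 83.9 fragments, and its ratio to w1118 was 76.2 with an interval of 13.2 to 3013. Of the genes beside it on 3L in release 6, Aplip1 also had its highest value in CncCRNAi, at 4.12 FPKM against at most 0.900 elsewhere, as did CG13912 at 5.68 against at most 2.76. LysP (FBgn0004429), a lysozyme of the salivary gland, was listed at 8.36 FPKM in CncCRNAi+HttQ138, from about 14.1 fragments, and at 0 in the other 5 libraries. LysS reached 1.04 FPKM, in Rpn3RNAi. The library labelled CncCRNAi carried a high LysX level that CncCRNAi+HttQ138, which shares the construct, did not.

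Control libraries were compared with each other to show how far members differed without HttQ138 or Rpn3RNAi. Against w1118, CncCRNAi had 1 member called higher, LysX, where 3.02% of all genes were higher, and 0 called lower, where 0.965% were. Below the rule, Dif stood 2.93-fold higher (2.52 to 3.42), cact 2.00-fold (1.71 to 2.35), PGRP-LB 1.89-fold (1.71 to 2.10), TepIV 1.72-fold (1.65 to 1.80) and dl 1.69-fold (1.47 to 1.94). TepII was 1.43-fold lower (1.34 to 1.53) and PGRP-SD 1.47-fold lower (1.28 to 1.68). Of the Imd pathway genes outside the members, POSH, a ubiquitin ligase that acts on the kinase Tak1, was called higher, at 12.9 FPKM in w1118 and 44.3 in CncCRNAi. Cytokine genes linked to gut damage moved in the same library: upd3 stood at 16.8 and 111 FPKM, upd2 at 8.68 and 69.2, and Socs36E, a target of the JAK-STAT pathway they activate, at 40.1 and 126. The 5 enterocyte markers called higher included Mal-A1, a maltase, at 2.73 and 65.1 FPKM, and mesh, a junction protein, at 13.6 and 87.1. The 1 called lower was Jon99Fi, at 43.7 and 13.6 FPKM.

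attP2 had 0 members called higher than w1118 (1.5% of all genes) and 0 lower (1.74%). PGRP-LB stood 1.81-fold higher (1.63 to 2.01), TepIV 1.40-fold (1.34 to 1.47) and PGRP-SD 1.36-fold (1.21 to 1.53). The peptide genes other than AttD summed to 28.6 FPKM in attP2 and 1.81 in w1118, a ratio of 15.8. The interval on the few summed fragments given above was 2.35 to 83.7. upd3 was called higher, at 51.3 against 16.8 FPKM, and so were 3 fat body markers, the yolk protein genes. Of the 27 enterocyte markers, 5 were called higher, among them Mal-A1 at 43.5 against 2.73 FPKM, and 2 lower. The 2 were Jon99Fi, at 4.59 against 43.7 FPKM, and Jon99Fii, at 5.71 against 31.9. attP2 differs from w1118 in genotype and in days at 29 °C, which cannot be told apart. LysB to LysE summed to 1.75 FPKM in attP2 and 11.1 in w1118, a ratio of 0.158. The interval on summed fragments, about 1.40 and 12.1, was 0.00169 to 0.488.

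**Figure D4:**
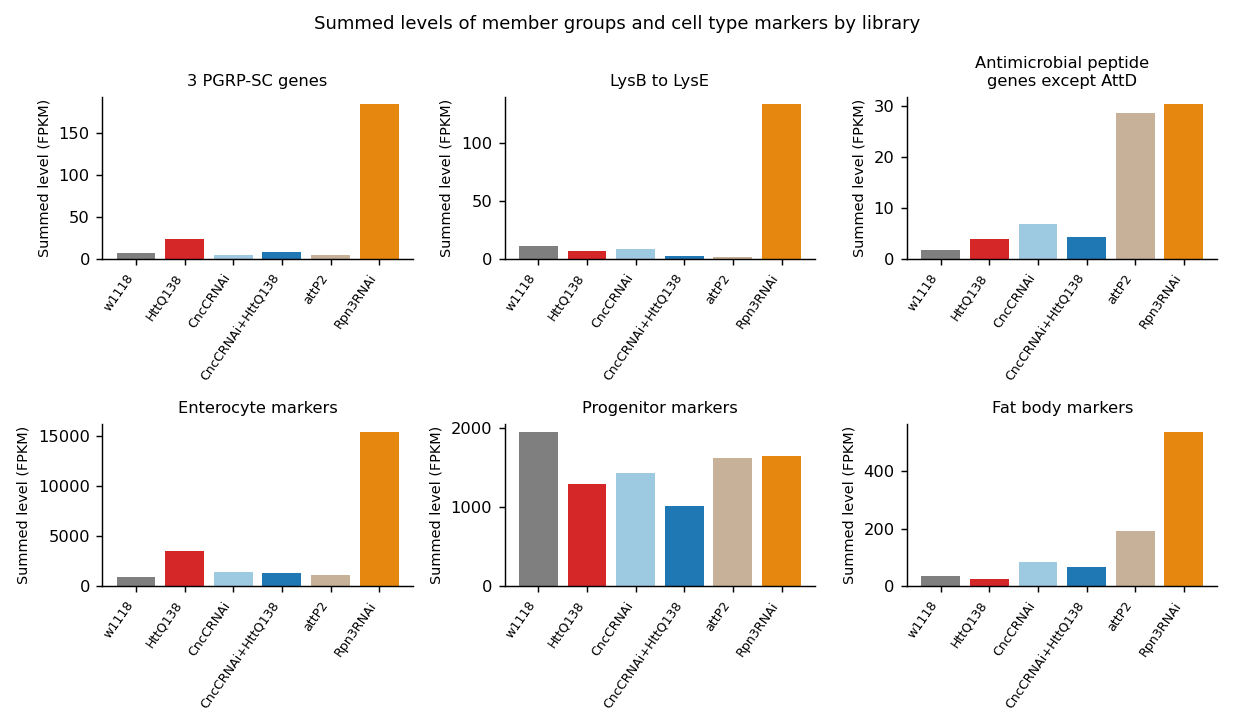
Summed FPKM (vertical axes from 0) of 3 groups of members and of the enterocyte, progenitor and fat body marker lists, with 1 bar per library and no replicates. PGRP-SC genes (184 FPKM), LysB to LysE (134) and enterocyte markers (15353) peak in Rpn3RNAi, while the peptide genes other than AttD are near 30 FPKM in both attP2 (28.6) and Rpn3RNAi (30.3).

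Effector genes outside the members were mostly at or below 1 FPKM, but some were called. Of 32 further immune-induced and lysozyme-like genes, 13 were listed at 0 throughout and 14 passed 1 FPKM. Of these 14, 3 were called higher with HttQ138, where 2.09% of all genes were. With Rpn3RNAi 2 were called higher, where 4.27% of all genes were, and 0 were called lower with either. IM33 stood at 4.56 FPKM in w1118 against 58.5 in HttQ138, 23.3 in CncCRNAi against 0 in CncCRNAi+HttQ138, and 4.30 in attP2 against 66.4 in Rpn3RNAi. CG12780 read 1.32, 26.5, 8.31, 3.45, 2.45 and 40.4 FPKM in that order. Both were called higher with HttQ138 and with Rpn3RNAi, and IM33 also in CncCRNAi against w1118. IM14, an immune-induced peptide gene, was also called higher with HttQ138, at 16.9 FPKM against 0 in w1118. fon, which acts in clotting, was listed at 0 in w1118 and 12.2 FPKM in attP2. Duox, whose oxidase releases reactive oxygen into the gut lumen, stayed at or below 0.820 FPKM.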

How the data were processed

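The members and all gene lists were chosen with earlier results of these data known. Per the paper's methods, the authors sorted GFP-positive cells, sequenced 150 bp paired-end reads on a MiSeq and mapped them with the Tuxedo suite; they deposited FPKM per gene, already divided by gene length and mapped fragments. Tool versions are not given in the sources used here. All 6 libraries were used as deposited, without further scaling. Calls required a 3-fold difference with 10 FPKM or more in the higher library, among genes above 1 FPKM in any library; log2 ratios used a pseudocount of 1 FPKM. No test across libraries was run. Fragments were estimated as FPKM × (median transcript length − 153) × depth. Depth was set so that low values fell on whole fragments (78.1% to 82.7% within 0.05). It was tested on simulated data drawn with the same lengths and the same offset of 153, so that test cannot check the lengths or the offset. Lengths, gene order and biotypes came from release 6 (Ensembl 115); 59 of 60 identifiers matched, and Drs was matched by symbol. The authors' release differs, so no coordinates are given. No genome sequence was used here. Every member at 10 FPKM or more was named where a statement turns on it, lower members by their range or highest value, and listed genes where called or most abundant. Python 3.11.15, pandas 2.3.3 and SciPy 1.17.1 were used.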

Additional observations from a re-analysis of the deposited data

Results flagged for a closer look

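In 3 members the HttQ138 ratio pointed in opposite directions without and with CncCRNAi, and both counting intervals lay on opposite sides of 1. The log2 ratio of FPKM + 1 for AttD was -1.19 for HttQ138 against w1118 and 0.72 for CncCRNAi+HttQ138 against CncCRNAi. For Dif it was 0.80 and -0.26. For Rel it was -0.22 and 0.10, beside a shift of the median gene of -0.08 and -0.10 in these comparisons. As folds of FPKM, the differences of AttD were 2.43 and 1.69, beside a 1.93-fold spread among control libraries. Those of Dif, 1.76 and 1.20, both lay within its 2.93-fold spread. That spread is CncCRNAi over w1118, the denominators of these ratios, so it is no separate yardstick. Those of Rel were 1.17 and 1.07, beside a 1.09-fold spread. With 1 library for each condition, whether the ratios differ from each other was not tested.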

How the results depend on the processing

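With 1 library per condition no replicate could be left out. The 3-fold counts rest on few genes. A threshold of 2-fold called 1 member higher (PGRP-SC2) and 1 lower (AttD) with HttQ138, 1 lower with Rpn3RNAi (PGRP-LB) and 3 higher in CncCRNAi than in w1118 (LysX, Dif and cact). Rescaling to a median ratio of 1, or attP2 as control, each called 1 member higher with HttQ138 (PGRP-SC2). A minimum of 5 FPKM called 1 lower with HttQ138 (LysD), 1 higher in CncCRNAi+HttQ138 (LysP), 1 lower in Rpn3RNAi (CecA1), and 1 higher (CecA1) and 1 lower (LysD) in attP2 than in w1118. With w1118 in place of CncCRNAi, 0 members were lower in CncCRNAi+HttQ138, where LysX was called before. Of alternatives chosen after seeing the data, leaving out near-identical copies left 3 of the 8 calls in Rpn3RNAi (PGRP-SC2, AttD and CecC), and summing copies gave 5, with 1 lower (CecA1 and CecA2 summed). Summing also gave 1 higher (the same cecropins) and 1 lower (LysB to LysE) in attP2 than in w1118. The 8 calls in Rpn3RNAi ranged from 6 (minimum of 20 FPKM) to 9 (minimum of 5 FPKM) under the other settings, and 7 also had a counting interval above 1. Members at a few fragments, such as the peptide genes other than AttD, have wide counting intervals.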
